A study of Homo sapiens with 9 samples.

Results

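SLBP, the stem-loop binding protein, and 8 partner factors of histone mRNA were followed in Raji, an established human B-cell line from a Burkitt lymphoma. The set was chosen by name, as factors of histone gene transcription, histone pre-mRNA 3′ processing and histone mRNA decay. All 9 named genes were found among the 15436 genes listed, and all 9 were abundant enough to test. Cells had received hydroxyurea (HU), thymidine with nocodazole (Thy-Noc) or the solvent DMSO, with 3 libraries in each of the 3 groups. HU blocks ribonucleotide reductase and so starves DNA synthesis. Thymidine in excess likewise stalls replication. Nocodazole depolymerises microtubules, which holds cells in mitosis. No dose or exposure time is stated in the sources used here. In bulk RNA, a change in the share of cells at one stage of the cycle and a change in the RNA of each cell cannot be told apart. The labels do not say that replicates were separate cultures. The p-values therefore set a difference only against the scatter of these libraries, and that scatter may be technical.

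Replication-dependent histone mRNAs end in a conserved stem-loop instead of a poly(A) tail. Their genes are switched on at the start of S phase when NPAT is phosphorylated by cyclin E-CDK2, and CASP8AP2 (also called FLASH) links that transcription to 3′ processing. SLBP binds the stem-loop, the U7 snRNP with its LSM10 and LSM11 subunits and the zinc-finger protein ZNF473 (ZFP100) bind nearby, and CPSF3 cuts the RNA within a complex scaffolded by SYMPK. ERI1 (3′hExo) also binds the stem-loop and trims the mRNA end when histone mRNA is destroyed. In cultured cells SLBP protein is known to build up before S phase and to be degraded at its end.

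The element that SLBP reads was looked for in annotated transcripts, because it defines the RNAs these factors act on. A match was 16 bases, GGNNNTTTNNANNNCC on the transcript strand, with 6 paired positions (G-T pairs allowed) around a loop of 4 bases. Of 11 tested replication-dependent histone genes, 10 had a match anywhere in a coding transcript of GENCODE release 29. Within the last 500 bases of a transcript, 6 of the 11 had one, against 0.158% of 19642 other protein-coding genes in the same window. Replication-dependent histone genes without a value here were counted among those others. The distinct sites follow, written as DNA with the loop in capitals.
H2AC6, H2BC15 and H2BC18: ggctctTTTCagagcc
H2BC4 and H2BC5: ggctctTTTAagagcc
H2AC11: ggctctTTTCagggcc
H4C8: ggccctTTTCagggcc
H4C9, H4C14 and H4C15: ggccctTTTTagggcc
The stem was the part that varied between H2A or H2B genes and H4 genes, and the loop varied at its last base. In H2AC6 the site lies at chr6:26124669-26124684 on the plus strand, and in H4C8 at chr6:26285131-26285146 on the minus strand (GRCh38). In 9 of the 10 genes an annotated transcript ran more than 100 bases past the site, as for H2AC6 with 1114 bases after it. H2BC12, described at the end, has an annotated transcript of 381 bases, which held no match. A model so short may leave out the 3′ end, so this does not show that the mRNA lacks the site.

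Library totals ran from 74940755 to 110485145 expected counts. Levels are given as CPM, counts scaled to library size with TMM factors. A gene was called at an adjusted p under 0.05, from edgeR's quasi-likelihood test adjusted after Benjamini and Hochberg over all 11346 tested genes. Of 8 B-cell markers, 6 averaged at least 5 CPM, and the summed level of all 8 was 1644 to 2373 CPM in HU, 1644 to 2603 CPM in Thy-Noc and 1867 to 2317 CPM in DMSO. The fibroblast list, with 1 of its 3 markers measured, stood at 8.09 to 13.7 CPM in HU, 1.97 to 5.19 CPM in Thy-Noc and 1.30 to 3.88 CPM in DMSO. The myeloid list, with 2 of its 5 markers measured, summed to 1.22 to 3.25 CPM in HU, 0.765 to 0.973 CPM in Thy-Noc and 0.840 to 1.06 CPM in DMSO. Both lists were higher in HU without overlap, and their part in the results was not tested. For 1838 tested genes (16.2%), some group held libraries at least 10-fold apart after adding 0.5 CPM, among them 2 of the 9 factors, ERI1 and ZNF473. The sources used here do not say whether a deposited value holds all reads of its gene or a part of them, so a CPM or fold change below is that of the deposited value, and a low CPM is not read as weak expression.

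SLBP mRNA was higher in both treatments than in DMSO. The gene (ENSG00000163950) is on chromosome 4, minus strand, 1692800 to 1712555 (GRCh38), with 6 transcripts annotated. It was measured at 254, 230.3 and 288 CPM in HU replicates 1, 2 and 3, at 232, 286 and 263 CPM in Thy-Noc replicates 1, 2 and 3, and at 77.4, 73.8 and 79.1 CPM in DMSO replicates 1, 2 and 3. Every treated library was above every DMSO library, and the HU and Thy-Noc values were intermixed. Libraries of a group differed by at most 1.25-fold after adding 0.5 CPM, so SLBP was among the evenly measured genes of the set.

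In HU, SLBP rose 3.35-fold over DMSO, to 257.5 ± 28.9 CPM in HU against 76.8 ± 2.73 CPM in DMSO (mean ± SD, n = 3 each), at an adjusted p of 0.00329 in edgeR's quasi-likelihood test. This is a log2 fold change of 1.75 ± 0.12 (SE). SLBP was the only 1 of the 9 factors called, against 3.56% of all tested genes in this comparison, and had the second smallest p of all 11346. The call held without any 1 of the 9 libraries, at edgeR adjusted p from 0.00522 to 0.0222.

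In Thy-Noc, SLBP rose 3.40-fold over DMSO, to 260.7 ± 27.0 CPM in Thy-Noc against 76.8 ± 2.73 CPM in DMSO (mean ± SD, n = 3 each), at an adjusted p of 0.00518 in edgeR's quasi-likelihood test. This is a log2 fold change of 1.76 ± 0.12 (SE). Thymidine-nocodazole changed few genes past the threshold: 4 of 11346 were called (0.0353%), and SLBP had the smallest p of all. The other 3 called genes were CRIP3 (a LIM-domain protein) and SETD2 (the histone H3 lysine 36 methyltransferase), both higher, and FCRL3 (a B-cell surface receptor), which was lower. CRIP3 averaged 24.4 CPM in HU, 36.5 CPM in Thy-Noc and 0.121 CPM in DMSO. It was abundant enough to test through treated libraries alone, so its call is descriptive. The SLBP call held without any 1 of the 9 libraries, at edgeR adjusted p from 0.0108 to 0.0346. Both comparisons use the same DMSO libraries.

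Set directly against each other, HU and Thy-Noc gave SLBP levels that did not pass the test, at 257.5 ± 28.9 CPM in HU and 260.7 ± 27.0 CPM in Thy-Noc (mean ± SD, n = 3 each). On the log2 scale HU minus Thy-Noc was −0.02 ± 0.11 (SE, edgeR quasi-likelihood adjusted p 0.97). The 95% interval of that difference, not adjusted for the number of genes, ran from 0.820-fold to 1.19-fold. A difference between the treatments within that range is not excluded. The edges of the interval are not the limit of what the adjusted test could call.

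**Figure D1:**
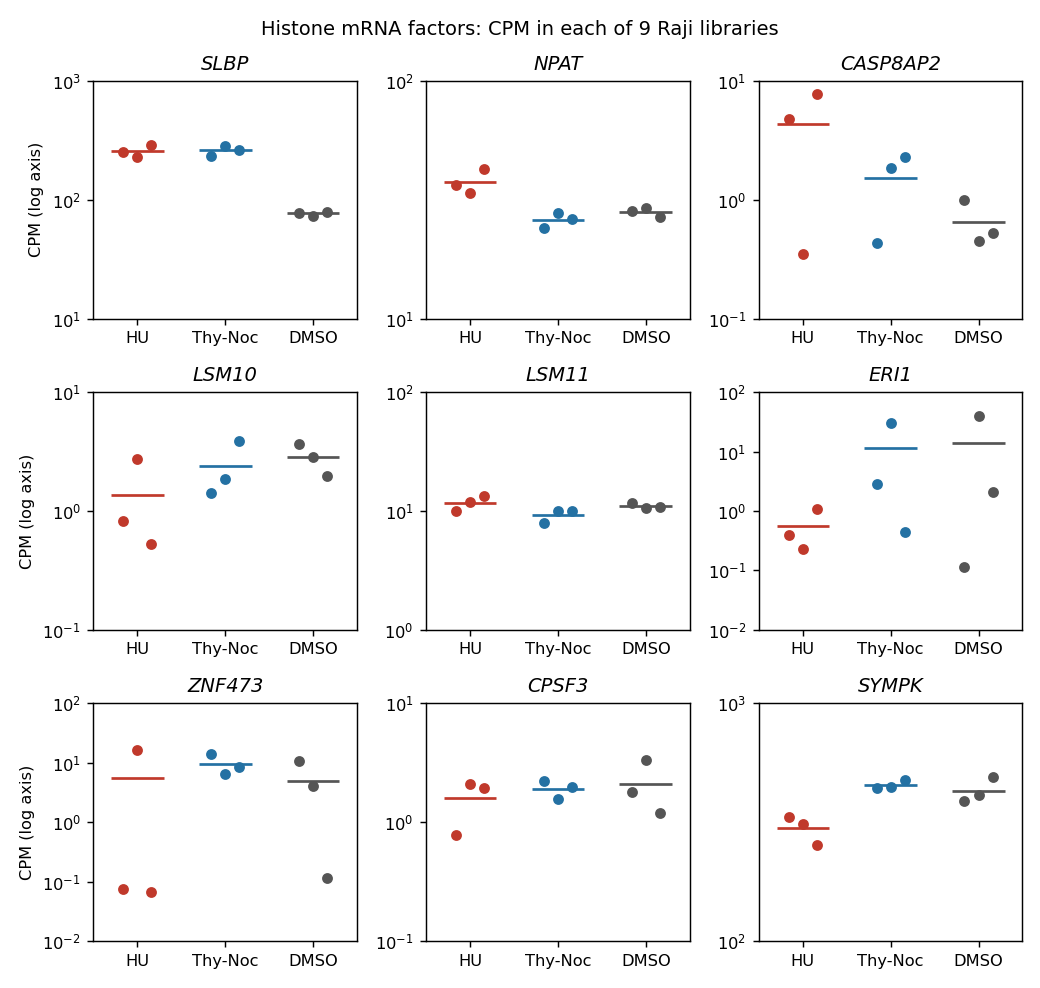
Level of each of the 9 factors in CPM on a log axis, by group, with 1 point per library (replicates 1 to 3 from left to right) and a bar at the group mean. SLBP lies between 230.3 and 288 CPM in HU and between 232 and 286 CPM in Thy-Noc, above 73.8 to 79.1 CPM in DMSO. ERI1 differs more than 10-fold within Thy-Noc and within DMSO, and ZNF473 within HU and within DMSO.

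NPAT and CASP8AP2, the factors of the set tied to histone gene transcription, did not pass edgeR's test in any comparison. NPAT (ENSG00000149308, chromosome 11, 108157215 to 108222642, minus strand), the cyclin E-CDK2 substrate that activates histone genes, stood at 36.4, 33.8 and 42.6 CPM in HU, at 24.0, 27.9 and 26.1 CPM in Thy-Noc, and at 28.5, 29.2 and 26.7 CPM in DMSO. All HU values lay above all values of the other groups, and Thy-Noc overlapped DMSO. Its log2 fold change was 0.42 ± 0.13 (SE, n = 3 each) for HU against DMSO, at an adjusted p of 0.129 in edgeR's quasi-likelihood test, and 0.53 ± 0.13 for HU against Thy-Noc, with an adjusted p of 0.0926. DESeq2 called both, with adjusted p of 0.006 for HU against DMSO and 0.000266 for HU against Thy-Noc. Of all 11346 tested genes, DESeq2 called 2135 and 1826 in these comparisons, so its single calls here and below are common ones. For Thy-Noc against DMSO the log2 fold change was −0.11 ± 0.13 (edgeR adjusted p 1). The annotated start of NPAT overlaps that of ATM, the DNA damage kinase on the other strand, over 159 bases. ATM averaged 2.21 CPM in HU, 6.53 CPM in Thy-Noc and 5.50 CPM in DMSO, and whether the counting used strand is not stated.

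CASP8AP2 (ENSG00000118412, chromosome 6, 89829894 to 89874436, plus strand) had low values that spread widely. It stood at 4.81, 0.350 and 7.78 CPM in HU, at 0.437, 1.87 and 2.29 CPM in Thy-Noc, and at 1.0015, 0.448 and 0.521 CPM in DMSO. HU replicates 1 and 3 were the highest of all 9 libraries, and HU replicate 2 was the lowest. The log2 fold change for HU against DMSO was 2.71 ± 1.08 (SE, n = 3 each; edgeR quasi-likelihood adjusted p 0.207), with a 95% interval from 0.17 to 5.26. DESeq2 called it at adjusted p 0.0414. Without HU replicate 3 the log2 fold change was 1.98 (edgeR adjusted p 0.413), without HU replicate 2 it was 3.26 (0.0795), and limma gave 1.32 to 1.84.

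The 2 proteins specific to the U7 snRNP differed in how evenly they were measured, and neither passed the test. LSM11 (ENSG00000155858, chromosome 5, 157743695 to 157760709, plus strand), with 1 annotated transcript, stood at 9.95, 11.9 and 13.3 CPM in HU, at 7.99, 10.02 and 10.003 CPM in Thy-Noc, and at 11.8, 10.6 and 10.9 CPM in DMSO. All Thy-Noc values were below all DMSO values, and HU overlapped both. Its log2 fold changes were 0.08 ± 0.18 for HU against DMSO, −0.25 ± 0.18 for Thy-Noc against DMSO and 0.33 ± 0.18 for HU against Thy-Noc (SE, n = 3 each), at adjusted p of 0.876, 1 and 0.376 in edgeR's quasi-likelihood test. The 95% interval for HU against DMSO ran from −0.33 to 0.49 on the log2 scale, which leaves out a rise of the size seen for SLBP.

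LSM10 (ENSG00000181817, chromosome 1, 36391238 to 36397892, minus strand) stood at 0.823, 2.76 and 0.524 CPM in HU, at 1.42, 1.86 and 3.88 CPM in Thy-Noc, and at 3.68, 2.84 and 1.97 CPM in DMSO. The groups overlapped in every comparison. The log2 fold change was −1.05 ± 0.68 for HU against DMSO (SE, n = 3 each; edgeR quasi-likelihood adjusted p 0.445). It was −2.06 (adjusted p 0.112) without HU replicate 2 and −0.66 (0.685) without HU replicate 3. ZNF473 (ENSG00000142528, chromosome 19, 50025714 to 50053414, plus strand), which contacts LSM11 in the U7 snRNP, was near 0 in some libraries and present in others. It stood at 0.0759, 16.4 and 0.0667 CPM in HU, at 13.98, 6.55 and 8.40 CPM in Thy-Noc, and at 10.5, 4.09 and 0.114 CPM in DMSO. HU replicates 1 and 3 and DMSO replicate 3 thus held 6, 7 and 9 expected counts, while each other library held at least 438. Its log2 fold change for HU against DMSO was 0.17 ± 2.02 (SE, n = 3 each; edgeR quasi-likelihood adjusted p 0.981), and without HU replicate 2 it was −6.08 (adjusted p 0.14). Its annotation holds 9 transcripts and overlaps VRK3, a kinase-like gene, on the other strand over 233 bases; VRK3 averaged 24.3 CPM in HU, 32.3 CPM in Thy-Noc and 24.5 CPM in DMSO.

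Among the cleavage factors, SYMPK was evenly measured and CPSF3 was not. SYMPK (ENSG00000125755, chromosome 19, 45815410 to 45863290, minus strand), the scaffold of the histone cleavage complex, stood at 333, 312 and 254 CPM in HU, at 438, 444 and 476 CPM in Thy-Noc, and at 387, 412 and 487 CPM in DMSO. All HU values were below all values of the other groups. The log2 fold change was −0.52 ± 0.13 for HU against DMSO and −0.59 ± 0.13 for HU against Thy-Noc (SE, n = 3 each), at adjusted p of 0.0813 and 0.0722 in edgeR's quasi-likelihood test. DESeq2 called both, with adjusted p of 0.0021 and 0.000363. For Thy-Noc against DMSO it was 0.08 ± 0.13 (edgeR adjusted p 1). CPSF3 (ENSG00000119203, chromosome 2, 9423568 to 9473101, plus strand), the endonuclease itself, stood at 0.772, 2.10 and 1.95 CPM in HU, at 2.21, 1.56 and 1.97 CPM in Thy-Noc, and at 1.79, 3.33 and 1.20 CPM in DMSO. These low values overlapped in all comparisons, with a log2 fold change of −0.39 ± 0.49 for HU against DMSO (SE, n = 3 each; edgeR quasi-likelihood adjusted p 0.74).

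ERI1 (ENSG00000104626, chromosome 8, 9002147 to 9116746, plus strand), the decay exonuclease, varied most. It stood at 0.392, 0.233 and 1.07 CPM in HU, at 2.86, 30.8 and 0.445 CPM in Thy-Noc, and at 0.114, 39.8 and 2.06 CPM in DMSO. Thy-Noc replicate 2 and DMSO replicate 2 stood far above all other libraries. For HU against DMSO its log2 fold change was −4.62 ± 2.26 (SE, n = 3 each; edgeR quasi-likelihood adjusted p 0.298) with a 95% interval from −9.94 to 0.69, and −0.93 (adjusted p 0.87) without DMSO replicate 2. DESeq2 called it at adjusted p 0.041.

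The 8 factors other than SLBP had, for Thy-Noc against DMSO, log2 fold changes from −0.30 (ERI1) to 1.22 (CASP8AP2), each at an adjusted p of 1 in edgeR's quasi-likelihood test. For HU against Thy-Noc, the loosely measured factors ranged from −4.32 ± 2.23 for ERI1 to 1.49 ± 1.03 for CASP8AP2 (SE, n = 3 each; edgeR adjusted p 0.354 and 0.51).

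**Figure D2:**
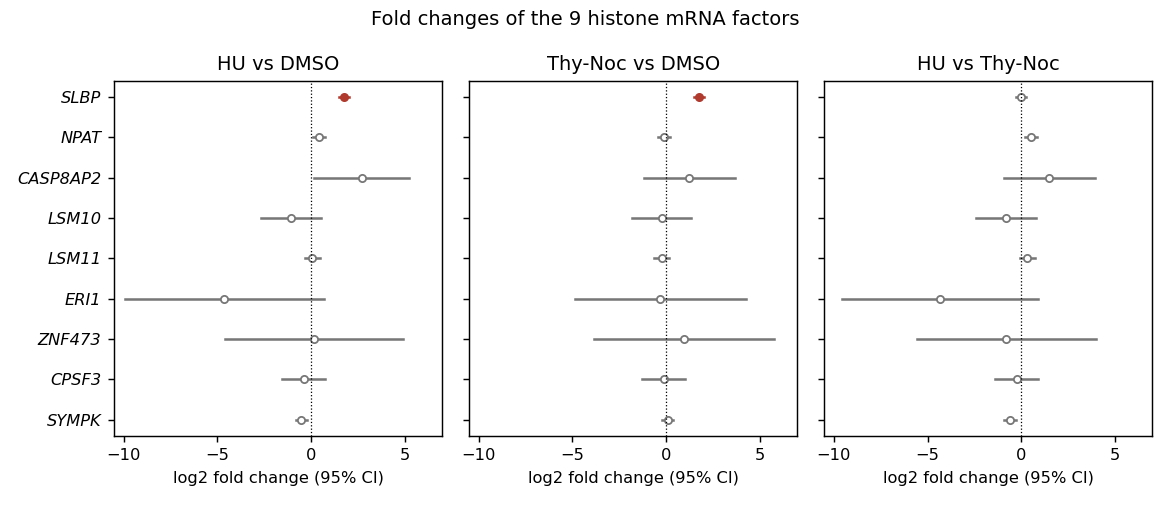
Log2 fold changes of the 9 factors in the 3 comparisons, with 95% intervals from edgeR's quasi-likelihood fit as bars (hidden behind the point where narrow) and filled points for adjusted p under 0.05. SLBP is filled at 1.75 for HU against DMSO and at 1.76 for Thy-Noc against DMSO, and no other factor is filled.

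Read as a set, the 9 factors had a median log2 fold change of 0.08 for HU against DMSO, −0.11 for Thy-Noc against DMSO and −0.25 for HU against Thy-Noc, beside 0.02, 0.01 and 0.01 over all tested genes. None of the 9 was called by edgeR's quasi-likelihood test for HU against Thy-Noc, where 1.75% of all genes were. NPAT and SYMPK, the 2 with an unadjusted p under 0.05 there (19.4% of all genes), were those called by DESeq2. At an unadjusted p under 0.05 stood 4 factors for HU against DMSO (21.2% of all genes) and 1 for Thy-Noc against DMSO (4.49%). Groups did not overlap for 3 factors in HU against DMSO (SLBP, NPAT and SYMPK; 30.7% of all genes), for 2 in Thy-Noc against DMSO (SLBP and LSM11; 9.97%) and for 2 in HU against Thy-Noc (NPAT and SYMPK; 24.9%). With only 9 factors, nothing further is read from these counts.

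The other factors did not follow SLBP across libraries. Over the 9 libraries, Pearson's r with SLBP on log2(CPM + 0.5) was 0.55 for CASP8AP2, 0.32 for NPAT, 0.03 for ZNF473, −0.16 for LSM11, −0.17 for ERI1, −0.22 for CPSF3, −0.35 for SYMPK and −0.47 for LSM10. Among 8131 other genes averaging at least 5 CPM, the patterns most like that of SLBP were CRIP3 (r = 0.99), SETD2 (0.98), ZNF274 (0.95), CNTNAP4 (0.93) and SUGT1 (0.90). The most opposed were WDR41 (−0.99), PIGF (−0.93) and KIF23 (−0.92). These describe libraries that fall into treated and untreated, so any gene that differs between those tends to a large r. CRIP3 and CNTNAP4 averaged 0.121 and 0.125 CPM in DMSO and were testable through treated libraries alone, so they had to differ. CRIP3, SETD2 and WDR41 moved over a far wider range than SLBP: SETD2 averaged 139.9 ± 31.8 CPM in HU, 70.0 ± 35.7 CPM in Thy-Noc and 1.42 ± 0.325 CPM in DMSO (SD, n = 3 each). SUGT1, a co-chaperone, had the narrower range of 41.7 ± 3.03, 37.8 ± 0.248 and 30.0 ± 2.92 CPM in the same groups.

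Partner genes of the pathway were taken from 6 lists, and a 7th held the histone genes themselves. For Thy-Noc against DMSO, edgeR's quasi-likelihood test called 0 genes of any of these lists, with 2 of 17 cleavage and polyadenylation genes, 1 of 11 transcription genes and 1 of 19 decay genes at an unadjusted p under 0.05 (4.49% of all genes) and none in the other lists. Of the 9 factors and these lists, SLBP was the only gene called there. For HU against DMSO, 7 of the 91 tested genes of these lists were called, against 3.56% of all tested genes, and 28 had an unadjusted p under 0.05 (21.2% of all). For HU against Thy-Noc, 4 of the 91 were called (1.75% of all) and 27 had an unadjusted p under 0.05 (19.4% of all). None of these 11 calls held when only the 6 libraries compared were fitted, at edgeR adjusted p of 0.0641 to 0.0879 against DMSO and 0.116 to 0.133 against Thy-Noc.

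Upstream of NPAT, CCNE2, a cyclin E, rose in HU. It stood at 66.4, 35.1 and 101.4 CPM in HU, at 5.59, 13.6 and 15.2 CPM in Thy-Noc, and at 9.91, 11.005 and 9.70 CPM in DMSO. Every HU library was above all others. The log2 fold change for HU against DMSO was 2.73 ± 0.49 (SE, n = 3 each; edgeR quasi-likelihood adjusted p 0.0377). Against Thy-Noc it was 2.56 ± 0.49 (adjusted p 0.0545). CCNE2 was the only 1 called of 11 tested genes of cyclin E-CDK2 and histone gene transcription. CCNE1, the other cyclin E, had a log2 fold change of 0.39 ± 0.25 (adjusted p 0.439). CDK2, their kinase partner, had −0.70 ± 0.91 (adjusted p 0.751). The CCNE2 call ended without 7 of the 9 libraries (all but HU replicate 2 and Thy-Noc replicate 1), at edgeR adjusted p from 0.0552 to 0.126. Without each library in turn, its log2 fold change was 2.32 to 3.04.

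CCNA2, cyclin A2, whose complex with CDK1 marks SLBP for destruction, was lower in HU. It stood at 46.8, 38.8 and 52.5 CPM in HU, at 90.0, 80.4 and 92.7 CPM in Thy-Noc, and at 77.7, 85.1 and 88.0 CPM in DMSO. Thy-Noc and DMSO overlapped, and HU lay below both. It fell by 0.86 ± 0.13 against DMSO and by 0.93 ± 0.13 against Thy-Noc on the log2 scale (SE, n = 3 each), at adjusted p of 0.0259 and 0.0335 in edgeR's quasi-likelihood test. It was the only 1 called of 13 tested genes of SLBP phosphorylation and turnover. CDK1 had −1.80 ± 0.71 (adjusted p 0.203) and CCNF, the ubiquitin ligase subunit cyclin F that targets SLBP in G2, −1.11 ± 1.07 (adjusted p 0.64), both for HU against DMSO. The CCNA2 call against DMSO ended without HU replicate 1 or 3 or any DMSO library (edgeR adjusted p 0.0571 to 0.0932). The call against Thy-Noc ended without every library but HU replicate 2 (adjusted p 0.0615 to 0.121).

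Sm proteins fill the rest of the U7 ring beside LSM10 and LSM11, except SNRPD1 and SNRPD2, whose place these take. SNRPD1 and SNRPF were called lower in HU, and 0 of 7 Sm genes were called higher. SNRPD1 stood at 93.2, 94.1 and 95.9 CPM in HU, at 136, 128 and 136 CPM in Thy-Noc, and at 129, 129.5 and 129.8 CPM in DMSO, with HU below both other groups. It fell by 0.46 ± 0.07 against DMSO and by 0.50 ± 0.07 against Thy-Noc on the log2 scale (SE, n = 3 each; edgeR quasi-likelihood adjusted p 0.0245 and 0.03). SNRPF fell by 0.46 ± 0.09 against DMSO and by 0.58 ± 0.09 against Thy-Noc (adjusted p 0.0391 and 0.0354). The median over the 7 Sm genes was −0.30 for HU against DMSO, 0.12 for Thy-Noc against DMSO and −0.46 for HU against Thy-Noc, beside 0.02, 0.01 and 0.01 over all genes. The SNRPD1 call against DMSO ended without HU replicate 1 or 3 or any DMSO library, at edgeR adjusted p of up to 0.0925. The SNRPF call against DMSO ended without every library but HU replicate 2, at up to 0.134. Against Thy-Noc, the SNRPD1 call ended without each of the 9 libraries and the SNRPF call without each but HU replicate 2, at adjusted p of up to 0.119 and 0.121. Total-count scaling ended all 4 of these calls, with SNRPD1 at −0.36 (adjusted p 0.0554) and SNRPF at −0.36 (0.0706) against DMSO. With no filter on low counts, the SNRPF call against DMSO (0.068) and both calls against Thy-Noc (0.0591 and 0.0612) ended too.

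ALYREF, an adaptor of mRNA export, and TUT7, a terminal uridylyltransferase that adds the uridine tails which start histone mRNA decay, were lower in HU as well. ALYREF averaged 155 ± 7.49 CPM in HU, 246 ± 22.3 CPM in Thy-Noc and 260.3 ± 27.6 CPM in DMSO (SD, n = 3 each), which on the log2 scale is −0.74 ± 0.11 against DMSO and −0.67 ± 0.11 against Thy-Noc (edgeR quasi-likelihood adjusted p 0.0224 and 0.0385). TUT7 averaged 33.9 ± 3.04 CPM in HU, 53.2 ± 10.7 CPM in Thy-Noc and 61.9 ± 6.57 CPM in DMSO (SD, n = 3 each), which on the log2 scale is −0.87 ± 0.18 against DMSO (adjusted p 0.0478). Each was the only call of its list, of 13 cap, export and translation genes and of 19 decay genes. Of 17 tested cleavage and polyadenylation genes, edgeR called 0 in any comparison, with 6 at an unadjusted p under 0.05 for HU against DMSO, where 21.2% of all genes were. CPSF2, the inactive partner of CPSF3 in the cleavage complex, had −0.42 ± 0.09 for HU against DMSO (adjusted p 0.0551). Of the 17, 5 had a log2 fold change above 0 there, and the list's median was −0.27. The largest change in the list was a rise, that of CSTF2, at 4.51 ± 1.47 for HU against DMSO (edgeR adjusted p 0.139). For Thy-Noc against DMSO it was 4.38 ± 1.46, not called either. Every treated library was above every DMSO library for CSTF2, as for SLBP, but Thy-Noc ran from 7.08 to 72.7 CPM. The ALYREF call against DMSO ended without HU replicate 1 or 3 or any DMSO library (0.061 to 0.0791), and that against Thy-Noc without each of the 9 libraries (0.0571 to 0.123). The TUT7 call ended without every library but Thy-Noc replicate 1 (0.0696 to 0.153), and with total-count scaling (0.0723), as did the calls of ALYREF (0.058) and CCNA2 (0.0529) against Thy-Noc. With no filter on low counts, these 3 calls stood at 0.0705, 0.0724 and 0.0545, and with robust dispersions that of TUT7 narrowly ended, at 0.05 after rounding.

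**Figure D3:**
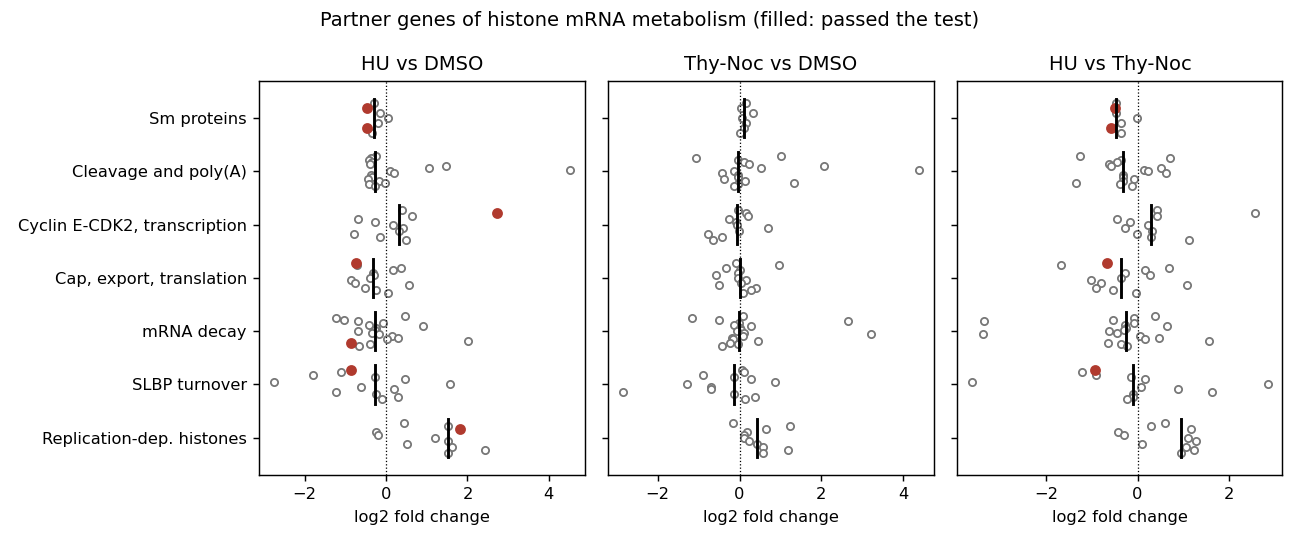
Log2 fold changes of all tested partner genes by list in the 3 comparisons, with 1 point per gene, filled where edgeR's adjusted p was under 0.05, and a bar at the list's median. Filled points are present for HU against DMSO and for HU against Thy-Noc, and for Thy-Noc against DMSO there are 0.

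Replication-dependent histone genes were measured at low levels, from libraries made with a kit that selects poly(A) RNA, a tail their mRNAs mostly lack. The values may thus be of polyadenylated transcripts and not of the stem-loop-ended mRNAs that SLBP binds. Which form they hold was not tested. Of 62 replication-dependent histone genes in the list, 43 had a value and 11 were abundant enough to test. The summed level of those 43 was 69.3, 29.2 and 43.2 CPM in HU, 32.0, 25.1 and 32.3 CPM in Thy-Noc, and 23.9, 19.3 and 23.8 CPM in DMSO. HU replicate 1 was the highest, HU replicate 2 lay within the range of Thy-Noc, and all HU and Thy-Noc sums were above all DMSO sums. H2BC12, a histone H2B gene, stood at 25.2, 10.5 and 16.7 CPM in HU, at 10.2, 5.88 and 7.09 CPM in Thy-Noc, and at 5.76, 3.92 and 5.21 CPM in DMSO. It rose by 1.81 ± 0.38 on the log2 scale for HU against DMSO (SE, n = 3 each), at an edgeR quasi-likelihood adjusted p of 0.0492. It was the only 1 called of the 11, and the call also ended with median-of-ratios scaling (0.0511), robust dispersions (0.0524) and no filter on low counts (0.0672). For Thy-Noc against DMSO its log2 fold change was 0.64 ± 0.37 (adjusted p 1). The H2BC12 call ended without every library but HU replicate 2 (edgeR adjusted p 0.0576 to 0.157). H2BC5 had 1.52 ± 0.34 (adjusted p 0.0565) and H4C8 2.42 ± 0.63 (adjusted p 0.0844) for HU against DMSO. Of the 11, 9 had a log2 fold change above 0 there, and H2BC15 (−0.25 ± 0.47) and H2BC18 (−0.21 ± 0.74) did not. The median over the 11 was 1.52 for HU against DMSO and 0.42 for Thy-Noc against DMSO. A gene that passed the filter only through the group where it was high had to differ, so these medians are a description of the 11. H4C8 averaged 0.255 CPM in DMSO against 1.37 CPM in HU. H4C9 and H4C15 averaged 0.791 and 0.725 CPM in DMSO against 2.28 and 2.24 CPM in HU. H4C8, H4C9 and H4C15 passed the filter through treated libraries alone, so their p-values are descriptive too. All had an unadjusted p under 0.05 in edgeR's quasi-likelihood test for HU against DMSO, and they are part of the count of such genes given above. Histone genes are near-identical in sequence, and reads may have been divided between them.

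**Figure D4:**
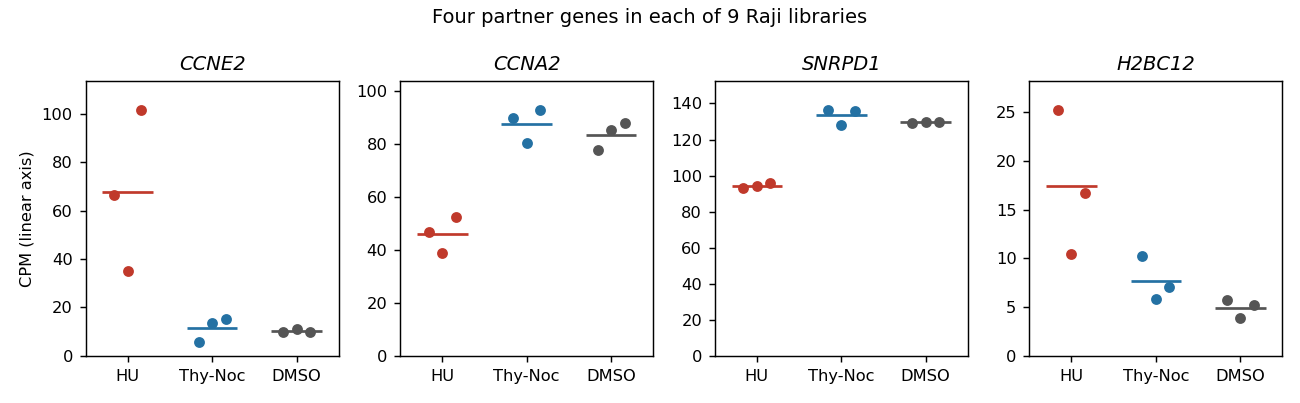
Level of CCNE2, CCNA2, SNRPD1 and H2BC12 in CPM on a linear axis from 0, by group, with 1 point per library and a bar at the group mean. In HU, CCNE2 and H2BC12 lie above and CCNA2 and SNRPD1 below all Thy-Noc and DMSO libraries, unlike SLBP, whose HU and Thy-Noc values were intermixed.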

How the data were processed

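RNA was sequenced from 9 Raji libraries prepared with a stranded mRNA kit, per the labels' protocols. FastQC, Trim Galore, STAR and DESeq2 and the build GRCh38 are named without roles, per the submitters' processing notes. How reads were counted, over which gene models and with which strand option is not stated there. Expected counts rounded to whole numbers are what the authors deposited, as far as the values show: their table's name says CPM, yet it holds whole numbers from 1 upward with unequal library totals, and 274 genes stand at 1 in all libraries. Genes were matched by identifier (15393 of 15436 got a symbol); a spreadsheet had altered the names of 2 factors.

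Genes reaching 1 CPM in 3 or more libraries were tested with edgeR 4.0.16 in R 4.3.3, using TMM and 1 quasi-likelihood model of the 3 groups (6 residual degrees of freedom). Tested genes had a median count of 1187, so differences between libraries and not counting error limit the precision. Between libraries of a group the chi-square per degree of freedom, over all tested genes, was at least 930.4, so none is a copy of another. Unevenly measured genes enter that value, so it cannot show whether libraries came from separate cultures. DESeq2 1.42.0, limma 3.58.1, other filters and scalings, a replicate block and leaving out each library were alternatives; total-count scaling and robust dispersions were chosen after the data were seen. The steps were tested on simulated data. The factors, the lists and the tests were chosen with earlier results of these data known. Named genes are all 9 factors, called genes of each list (up to 4 per direction), and the 5 most and 3 least like SLBP; others named were chosen after their values were seen.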

Additional observations from a re-analysis of the deposited data

How the results depend on the processing

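SLBP kept its direction and its call for HU against DMSO under all 11 alternative settings (log2 fold change 1.73 to 1.85) and without each library (1.66 to 1.82). For Thy-Noc against DMSO it kept the call without each library (1.69 to 1.84) and under 10 of 11 settings (1.72 to 1.76). Blocking on the replicate number, its log2 fold change was 1.76 and the adjusted p 0.0855, and 0 factors were called. Same-numbered libraries of different groups correlated at −0.035 to 0.04 in their deviations from group means, and differently numbered ones at −0.054 to 0.033. Of 9 libraries, 4 correlated best with their own number. Correlations this small cannot decide whether same-numbered libraries were paired. For HU against Thy-Noc, SLBP changed sign around 0 with total-count scaling (0.13, where the median of all genes was 0.16) and ranged from −0.103 to 0.062 without 1 library.

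Counts of called genes depended on the setting. For HU against DMSO, 404 genes were called, against 220 with no filter, 9 with the block, 51 with only the 6 libraries compared and 2135 by DESeq2, and 21 to 318 without 1 library. For HU against Thy-Noc, 199 were called, against 64 with no filter, 313 with a CPM minimum of 5, 0 with the block, 18 with only the 6 libraries and 1826 by DESeq2. Limma called 326, 311 and 346 there at pseudocounts of 0.5, 0.1 and 1 CPM, and 1 to 103 were called without 1 library. For Thy-Noc against DMSO, 4 were called, against 0 with the block, 179 by DESeq2, and 12, 7 and 12 by limma at the same pseudocounts, and 5 to 13 without 1 library. DESeq2 called 5 of the 9 factors for HU against DMSO, beside 2135 of all 11346 tested genes. For HU against Thy-Noc it called 2 of the 9, beside 1826 of 11346.

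Of 468 values of the other 8 factors under alternatives, 444 kept their direction and side of the threshold, 6 became calls (all by DESeq2) and 18 changed sign, none of them called. ZNF473 for HU against DMSO was −1.12 with the block, −0.83, −1.43 and −0.57 by limma at pseudocounts of 0.5, 0.1 and 1 CPM, and −6.08 to 1.39 without 1 library. ERI1 for Thy-Noc against DMSO was 0.42 with the block, 0.22, 0.48 and 0.12 by limma at the same pseudocounts, and −3.08 to 3.39 without 1 library. Without 1 library, CPSF3 ranged from −0.66 to 0.11 (HU against DMSO), −0.42 to 0.36 (Thy-Noc against DMSO) and −0.49 to 0.084 (HU against Thy-Noc), LSM11 from −0.018 to 0.19 (HU against DMSO) and LSM10 from −0.78 to 0.022 (Thy-Noc against DMSO). The cause of these shifts was not tested. A fit without 1 library has 5 residual degrees of freedom in place of 6. With a CPM minimum of 5, 5 factors remained testable. The block ended every call of a partner or histone gene, at adjusted p of 0.0604 to 0.112 for HU against DMSO and 0.0918 to 0.105 for HU against Thy-Noc.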
